A study of Drosophila melanogaster with 3 samples.

Results

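The nuclear piRNA pathway genes described here are piwi, arx, Panx, nxf2, mael, rhi, del, cuff and moon, 9 of the 13945 protein-coding genes annotated on chromosomes 2L, 2R, 3L, 3R, X and 4. They were fixed by name, and for each one every peak was taken whose summit lay in the gene body or within 2 kb of it. The peaks come from chromatin immunoprecipitation followed by sequencing (ChIP-seq) of Hybrid male rescue (Hmr), a DNA-binding protein associated with HP1. All 3 biological replicates were whole Drosophila melanogaster embryos of mixed sex aged 0 to 24 h, from 1 transgenic line in which Hmr carries GFP at its C terminus, precipitated with an antibody to GFP. There was 1 group and no other genotype or treatment, and the promoter that drives the transgene is not given in the sources used here. Whole embryos mix all tissues, so no peak can be assigned to germ cells or to any other cell type, and the antibody sees only the tagged protein.

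PIWI-interacting RNAs (piRNAs) are short RNAs that guide Argonaute proteins of the PIWI class to transposon transcripts, chiefly in the gonads of flies. In the nucleus, Piwi with its partner Asterix (arx) finds nascent transposon RNA, and Panoramix (Panx) with Nxf2 then brings in the machinery that methylates histone H3 on lysine 9, while Maelstrom (mael) acts late in this silencing. In germ cells the piRNA precursors come from heterochromatic clusters that are marked by Rhino (rhi), an HP1 paralog, which works with Deadlock (del) and Cutoff (cuff), and the TFIIA-like protein Moonshiner (moon) starts transcription there.

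The authors' optimal list, kept by the irreproducible discovery rate (IDR), held 8131 peaks, which were exactly the strongest entries of a relaxed list of 30000 entries called on the pooled replicates. Each replicate also had a relaxed list of 30000 entries, peaks and background together, so an entry in those lists is not by itself a call of binding. Rank 1 is the entry of highest signal in its list, and signal, the authors' value per peak, is compared within a list only because the depth is unknown.

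The stretches below lie at 5 sites that the results turn on, written along the plus strand of dm6 without any annotated untranslated region. They show the DNA between piwi and its neighbour CG12253 where only replicate entries lay (chr2L:10987463-10987751), the optimal site next to del at the start of pths (chr2L:21143045-21143228), the site upstream of del found in replicates 2 and 3 (chr2L:21149180-21149380), the stronger optimal site upstream of moon (chrX:12073653-12073853) and the optimal site beyond mael at the start of CG11367 (chr3L:22728003-22728110). Capitals mark matches, on either strand, to any of 7 short sequences. The DNA replication-related element (DRE), which the factor Dref binds, was searched as TATCGATA, and the sequence of the promoter factor M1BP as GGTCACACT. The core of the site of the insulator protein BEAF-32 was searched as CGATA, which the longer DRE contains on both strands. The letters of the E-box, a site of helix-loop-helix factors, were CAGCTG in this search. For the early embryonic activator Zelda the letters searched were CAGGTA in the same way. The site of GAGA factor, a chromatin-opening protein, was taken as GAGAG without further bases. The box bound by TATA-binding protein near many promoters was taken as TATAAA on either strand. The piwi and moon stretches held no match.
piwi and CG12253: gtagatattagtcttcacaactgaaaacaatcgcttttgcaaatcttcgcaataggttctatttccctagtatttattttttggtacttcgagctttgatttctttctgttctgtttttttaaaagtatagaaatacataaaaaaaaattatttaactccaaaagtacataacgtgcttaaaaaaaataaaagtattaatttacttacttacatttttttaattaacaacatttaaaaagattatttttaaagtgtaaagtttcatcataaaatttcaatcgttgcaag
del and pths: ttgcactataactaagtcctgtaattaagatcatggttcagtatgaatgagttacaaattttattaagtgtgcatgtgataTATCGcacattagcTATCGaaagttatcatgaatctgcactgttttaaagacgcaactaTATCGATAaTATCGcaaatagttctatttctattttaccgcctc
del upstream: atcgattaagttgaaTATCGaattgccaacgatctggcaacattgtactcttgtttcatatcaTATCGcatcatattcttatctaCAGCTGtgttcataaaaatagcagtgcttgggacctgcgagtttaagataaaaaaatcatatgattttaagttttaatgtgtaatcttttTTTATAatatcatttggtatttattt
moon upstream: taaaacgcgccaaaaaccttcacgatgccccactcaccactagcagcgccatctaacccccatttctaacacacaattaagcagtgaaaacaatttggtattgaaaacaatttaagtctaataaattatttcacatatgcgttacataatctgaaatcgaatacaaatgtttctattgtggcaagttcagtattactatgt
mael and CG11367: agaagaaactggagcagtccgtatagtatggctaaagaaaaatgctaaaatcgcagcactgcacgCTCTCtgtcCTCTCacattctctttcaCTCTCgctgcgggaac

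The pths site next to del held the 1 complete DRE among these stretches, starting 40 bp above the summit, and 5 matches to CGATA, of which 2 lie inside the DRE. Of all 8131 optimal summits, 3.37% had a DRE and 28.6% a CGATA within 100 bp. The stretch upstream of del held 2 matches to CGATA, 1 E-box (found at 813 of the 8131 optimal summits) and 1 TATA box (32.5%). The CG11367 stretch held 3 matches to GAGAG on the minus strand, starting 35, 26 and 8 bp below the summit, and 24.0% of optimal summits had at least 1. Within 100 bp of that summit there was also 1 TATA box, starting 80 bp above it and outside the printed stretch. A match describes the letters only. The stretch between piwi and CG12253 was rich in A and T, with 23.5% G and C, against 47.2% at CG11367.

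Of the 9 genes, 6 had an optimal summit in the gene body or within 2 kb (del, cuff, moon, Panx, nxf2 and mael), and piwi, rhi and arx had none. Among all protein-coding genes 44.9% had one, so the members' count is read against that share. No optimal summit lay inside the body of any member, although 17.2% of protein-coding genes held one in the body. Within 250 bp of an annotated transcription start, 2 members had an optimal summit, cuff and Panx, against 23.4% of protein-coding genes. The pooled relaxed list gave the same 6 members an entry in the window, against 65.0% of protein-coding genes, and all 3 replicate lists had an entry in the window of 5 members, against 54.9%. The last count does not ask for a common site. In the windows of mael and del, replicates 1 and 2 shared no site, and mael counted through a replicate 2 entry of rank 29344. At cuff, Panx and moon all 3 replicates had a common site. None of these counts was tested, because 9 genes chosen by name form no sample of genes. When only optimal peaks found among the 8131 strongest entries of all 3 replicates were kept, the first count was 3 (Panx, moon and del), against 33.7% of protein-coding genes, and the count at starts was 1 (Panx), against 15.5%. With that match asked of the other replicates only, the first count was 5 without replicate 1 (38.2% of protein-coding genes), 3 without replicate 2 (37.0%) and 3 without replicate 3 (35.0%). At starts it was 2 without replicate 1 (18.5%), 1 without replicate 2 (18.2%) and 1 without replicate 3 (16.0%). Without replicate 1, the cuff summit at the start met the match only through entries of the stronger cuff summit within 200 bp. Its own entries ranked 9300 in replicate 2 and 24468 in replicate 3, outside the 8131 strongest. Leaving out replicate 1 thus gave back nxf2 and cuff to the first count and cuff to the count at starts.

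Windows differed in length, from 4811 bp for moon to 9216 bp for piwi, and longer windows hold more summits. With protein-coding genes split into 3 classes of nearly equal size by window, 29.5% of the shortest class had an optimal summit, and of the members there moon had one and arx had none. In the middle class the share was 41.4%, and all 4 members there had one (nxf2, cuff, Panx and del). In the longest class it was 63.9%, and of 3 members mael had one, while piwi and rhi had none. The 2 kb limit decided some of these calls: the del summit lay 8 bp inside it and the mael summit 131 bp inside, whereas the nearest optimal summit to arx lay 326 bp outside.

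**Figure D1:**
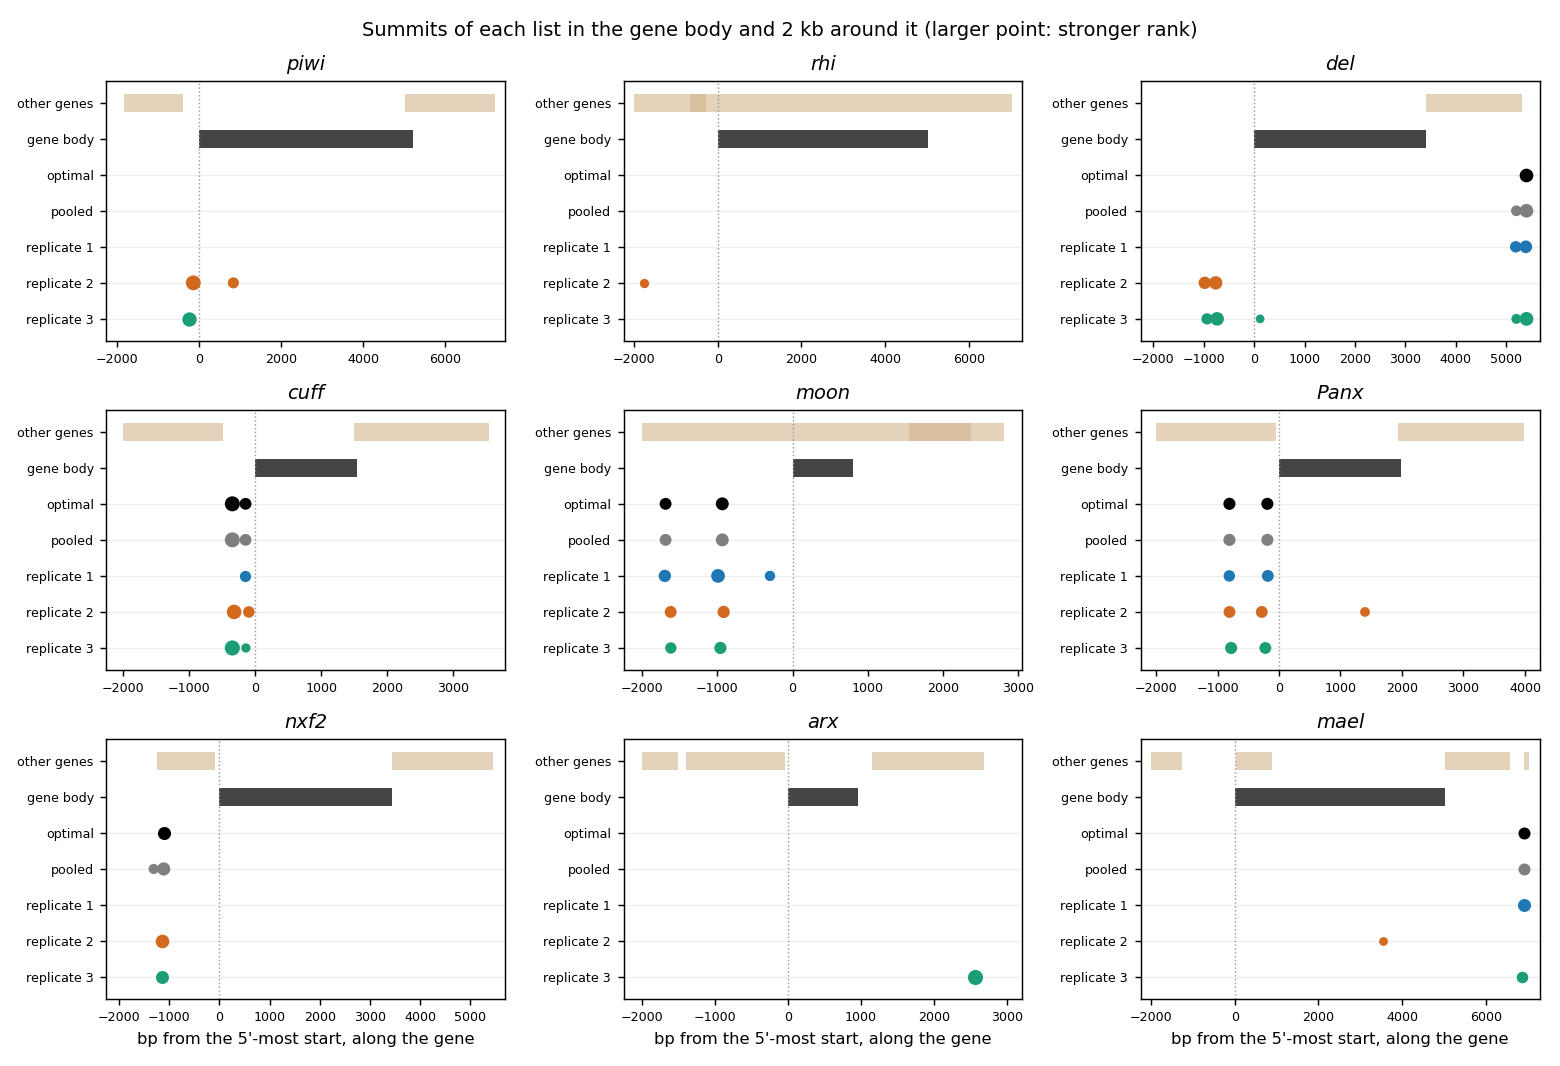
Each panel shows 1 gene, with distance in bp from its most upstream start along the gene on the x axis and the 5 lists as rows; points are summits, larger for a stronger rank within the list, and bars are the gene body and other protein-coding genes. No black (optimal), grey (pooled) or blue (replicate 1) point falls over a gene body, and piwi, rhi and arx have none of these points at all.

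The ranks of the 9 optimal summits in the members' windows ran from 1248 to 7958 of 8131. The stronger cuff summit had a signal of 593, that of del 353 and that of nxf2 279, above the median of the list (276), and the other 6 were below it. Of the 9, 7 lay within 250 bp of the start of some gene. The member's own start was the nearest start for 3 of the 9, namely 1 at cuff and 2 at moon, both of the latter farther than 250 bp from it. Over all 6266 protein-coding genes with an optimal summit in the window, 60.5% had at least 1 such summit nearest to their own start, against 2 of the 6 members. By place, 4 summits were intergenic and 5 lay in introns of neighbouring or surrounding genes. Among the strongest 8131 entries of all 3 replicates, 3 of the 9 were found, against 59.7% of all optimal summits.

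**Figure D2:**
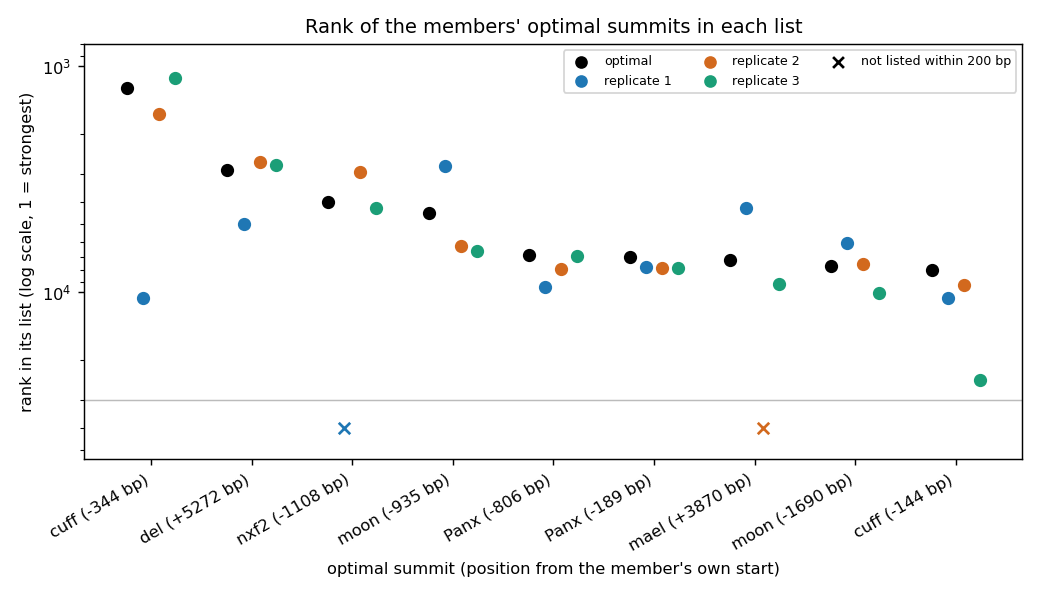
The rank of each of the 9 optimal summits is plotted on a log scale, strongest at the top, in the optimal list and in the 3 replicate lists, and a cross marks a replicate with no entry within 200 bp. The stronger cuff summit ranks 1130 in replicate 3 and 1638 in replicate 2 but is matched only by an entry of rank 10627 in replicate 1, while the Panx summit at -189 bp ranks from 7785 to 7817 in all 3.

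Of the genes for the silencing effector and its partners, piwi was split between replicates. The gene, FBgn0004872, lies on 2L from 10982205 to 10987420 on the minus strand, with its start 386 bp from that of CG12253 on the other strand. Replicate 2 listed an entry with its summit 133 bp upstream of the piwi start, at rank 1394 with a signal of 195. Replicate 3 listed one 241 bp upstream of piwi, and 145 bp upstream of CG12253, at rank 1973 with a signal of 173. The summits of these replicates lay 108 bp apart in the stretch printed above. Replicate 1, the pooled list and the optimal list had no entry anywhere in the piwi window. A weaker entry of replicate 2, at rank 11494, lay in a piwi intron 843 bp inside the start and had no counterpart in the other lists.

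The nearest pooled entries lay 22753 bp and 35556 bp to either side of the piwi start. This empty stretch of 58309 bp in the pooled list was among the longest at any gene: 3.8% of protein-coding genes had their start in one at least as long, and the median over all was 9722 bp. In replicate 1 the stretch was 65394 bp. Of the 32-base words in the pooled stretch, 99.9% occurred once in the genome, and how reads mapped there was not tested. Besides piwi the stretch held the start of aub, the gene of the cytoplasmic PIWI protein Aubergine, and that of RpL9, a ribosomal protein gene. At RpL9 replicate 2 had an entry at rank 888, 5 bp from the start, and replicate 3 had one at rank 783, 2 bp from the start, and neither replicate 1 nor the pooled list had any there. No list had a summit at the aub start. Replicate 1 also had entries in the pooled stretch, away from piwi and RpL9 and without a pooled counterpart, the strongest at rank 5551. Why these and the strong entries of replicates 2 and 3 have no pooled counterpart was not tested.

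**Figure D3:**
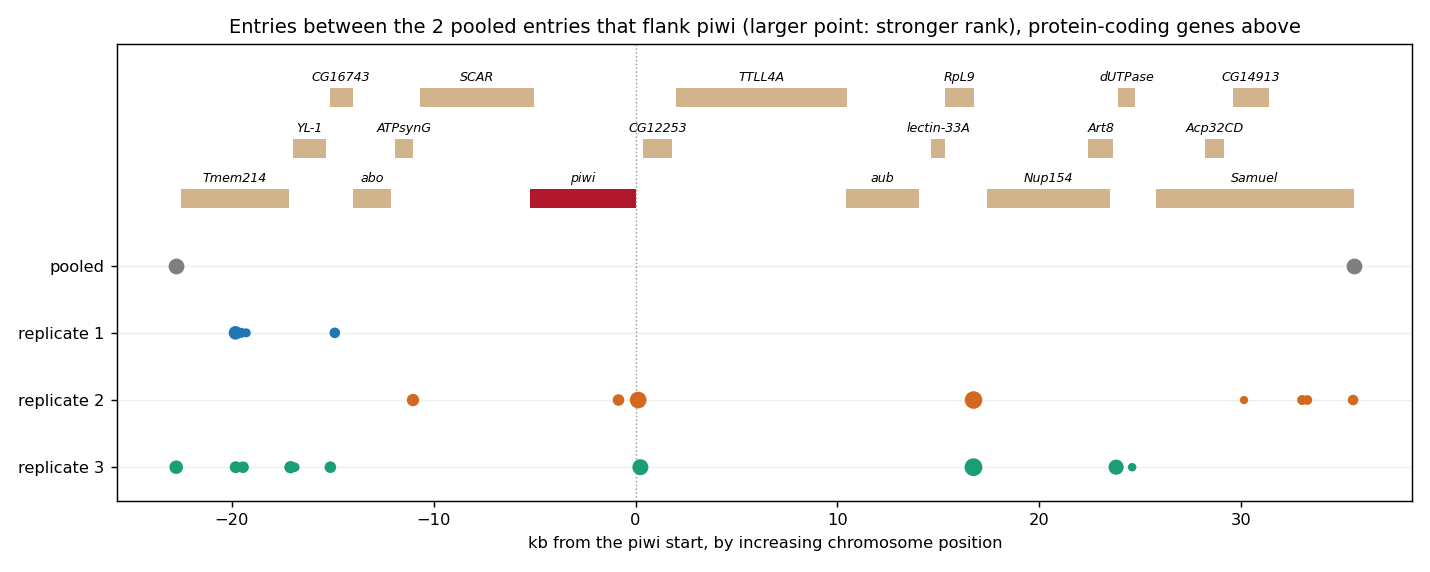
Entries of 4 lists are plotted by distance in kb from the piwi start between the pooled entries that flank it, with the protein-coding genes drawn above; for the replicates a larger point is a stronger rank, and the pooled points have 1 size. Replicates 2 and 3 have strong points at piwi and at RpL9, while replicate 1 has none at either gene.

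Such a pattern was uncommon. Of the 2000 strongest entries of replicate 2, 67 (3.35%) had no pooled entry within 500 bp, and in replicate 3 there were 81 (4.05%) and in replicate 1 there were 18 (0.9%). Counted by genes, 1039 had a summit within 250 bp of a start among the 2000 strongest entries of both replicates 2 and 3. Of these, 45 (4.33%) had no pooled entry in the window, and 41 of the 45, piwi among them, had none in replicate 1 either. These limits were chosen after the piwi entries had been seen.

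arx encodes Asterix, the zinc-finger protein that binds Piwi, and had no summit of its own. The gene, FBgn0036826, lies on 3L from 18900595 to 18901554 on the minus strand, with its start 40 bp from that of CG6843 on the opposite strand. The 1 entry in its window was in replicate 3, at rank 1190 with a signal of 227, and lay 113 bp inside the start of RpL26, in an intron of that ribosomal protein gene and 2566 bp from the arx start. No other list had an entry within 200 bp of it. The nearest optimal summit was 3285 bp from the arx start, at rank 6484. Of the head-to-head pairs among the members, that of arx is the closest, and no list had a summit between its starts.

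Panx encodes Panoramix, which links Piwi to the silencing machinery, and its optimal sites ranked low but were listed in all replicates. The gene, FBgn0034617, lies on 2R from 21310368 to 21312354 on the minus strand, 45 bp from the start of CG9485. Its nearer optimal summit lay 189 bp upstream of Panx, in an intron of CG9485 and 131 bp from the nearest start of that gene, in a peak from 21312315 to 21312770. It ranked 7004 in the optimal list with a signal of 176, and 7785, 7796 and 7817 in replicates 1, 2 and 3. The other summit lay 806 bp upstream of Panx and 207 bp from a start of CG9485, with rank 6870 and a signal of 178. Its ranks in replicates 1, 2 and 3 were 9508, 7891 and 6917. Both sites ranked below the median of the optimal list. Replicate 2 alone had an entry in the coding sequence of Panx, at rank 20101.

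nxf2, whose product forms a complex with Panoramix, had its optimal summit at another gene. The gene, FBgn0036640, lies on 3L from 16576859 to 16580306 on the minus strand. The summit lay 1108 bp upstream of its nearest start and 133 bp inside the start of Smn, a gene of RNA-protein assembly, in an intron of Smn. The peak ran from 16581186 to 16581641, with rank 4002 and a signal of 279. It ranked 2936 in replicate 2 and 4253 in replicate 3, and replicate 1 had no entry in the nxf2 window. This made nxf2 the 1 member with an optimal summit that replicate 1 left empty. A weaker pooled entry, at rank 16996, lay 23 bp from the start of the pseudogene CR43727.

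mael, the gene of Maelstrom, also had its summit at the start of a neighbour. The gene, FBgn0016034, lies on 3L from 22721203 to 22726234 on the plus strand. The optimal summit lay 1869 bp beyond its end and 8 bp upstream of the start of CG11367, in a peak from 22727875 to 22728330, with rank 7245 and a signal of 170. It ranked 4256 in replicate 1 and 9220 in replicate 3, and replicate 2 had no entry within 200 bp. Replicate 2 instead listed an entry in the coding sequence of mael at rank 29344, close to the bottom of its list. Of the 32-base words within 250 bp of a mael start, 74.0% occurred once in the genome, the lowest share among the members, and in the other 8 it rounded to 100%. Its part in the result was not tested.

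Of the genes that define and transcribe piRNA clusters, rhi had 1 weak entry and no optimal or pooled one. The gene, FBgn0004400, lies on 2R from 17628491 to 17633516 on the minus strand, wholly inside the longer gene CG10936 on the same strand. Its window held 1 entry in any list, in replicate 2 at rank 24222, with a summit 1754 bp upstream of rhi and 1103 bp from the start of Oxp, an HP1-related gene. The nearest optimal summit lay 40788 bp from the rhi start, and 95.0% of protein-coding genes had one as near or nearer. A pooled entry at rank 16658 and entries of all 3 replicates lay between 2880 and 3088 bp upstream, outside the window. Every 32-base word in the rhi window was unique.

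del, which encodes the adaptor Deadlock, had entries on both sides. The gene, FBgn0086251, lies on 2L from 21145137 to 21148546 on the minus strand, and its end overlaps that of pths by 10 bp. The optimal summit lay 1992 bp beyond the end of del and 84 bp upstream of the start of pths, in a peak from 21142917 to 21143372. Its rank was 2882 with a signal of 353, and it ranked 5021, 2655 and 2744 in replicates 1, 2 and 3. The replicate 2 summit for it fell 22 bp outside the window. At the other end, 734 bp to 761 bp upstream of del, replicate 2 had an entry at rank 3433 and replicate 3 one at rank 2975. Replicate 1 and the pooled list had none there, the same combination as at piwi. At the del start itself replicate 3 alone had an entry, at rank 29959.

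cuff, the gene of Cutoff, had 2 optimal summits, the strongest and, of all 9, the one nearest to its gene's start. The gene, FBgn0260932, lies on 2R from 11886067 to 11887603 on the plus strand, head-to-head with CG13185 at 482 bp. The stronger summit lay between both starts, 344 bp upstream of cuff and 138 bp upstream of CG13185, in a peak from 11885640 to 11885859 with rank 1248 and a signal of 593. It ranked 1638 in replicate 2 and 1130 in replicate 3. In replicate 1 the nearest entry lay 197 bp away at rank 10627. That same entry of replicate 1 lay 3 bp from the weaker optimal summit, so replicate 1 listed 1 summit where the others listed 2. The weaker summit lay 144 bp upstream of cuff, in a peak from 11885695 to 11886150 with rank 7958 and a signal of 157. Its ranks were 10627, 9300 and 24468 in replicates 1, 2 and 3. Both peaks overlap, and neither summit held a DRE or an M1BP sequence within 100 bp.

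moon, the gene of Moonshiner, had 2 optimal summits upstream of its start. The gene, FBgn0030373, lies on X from 12072008 to 12072818 on the minus strand, within an intron of Ten-a, a large gene of a synaptic adhesion protein. The summits lay 935 and 1690 bp upstream of moon, in peaks from 12073694 to 12073889 and from 12074280 to 12074735, and no other annotated start was nearer. The first had rank 4470 and a signal of 256, and ranked 2770, 6245 and 6587 in replicates 1, 2 and 3. The second had rank 7694 and a signal of 163, and ranked 6089, 7493 and 10064. All 3 replicates listed both sites. Replicate 1 also had an entry 300 bp upstream of moon at rank 15927.

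The distance from a start to the nearest summit summarised these differences. In the optimal list it was 144 bp for cuff, 189 bp for Panx, 935 bp for moon, 1108 bp for nxf2, 3285 bp for arx, 3759 bp for mael, 5272 bp for del, 22753 bp for piwi and 40788 bp for rhi. The median over the 9 was 3285 bp, and over all protein-coding genes it was 4288 bp. In the pooled list the medians were 3086 bp and 1055 bp. The replicate lists differed from each other: the members' median was 3331 bp in replicate 1, 761 bp in replicate 2 and 960 bp in replicate 3, beside 1149, 807 and 488 bp over all protein-coding genes. The order of the members therefore changed between lists. In replicates 2 and 3 the piwi distance was 133 and 241 bp, against 14891 bp in replicate 1. The del start was nearest to a summit of all 9 in replicate 3, at 9 bp, but that entry ranked 29959, at the bottom of its list. The del distance was 5059 bp in replicate 1 and 761 bp in replicate 2. For nxf2 the distance was 7929 bp in replicate 1 and 1141 and 1139 bp in replicates 2 and 3. For mael it was 521 bp in replicate 2, to an entry of rank 29344, and 3705 and 3628 bp in replicates 1 and 3. For cuff and Panx it stayed within 280 bp in every replicate.

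**Figure D4:**
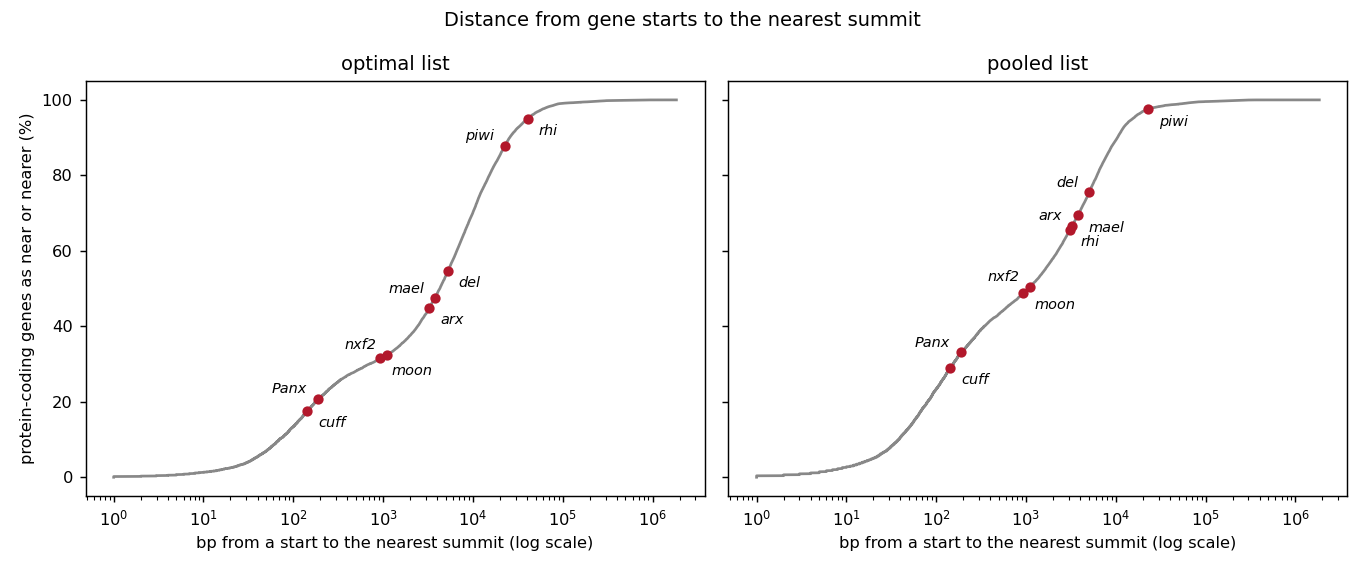
The grey curve gives the percentage of protein-coding genes whose start has a summit within the distance on the x axis (bp, log scale), for the optimal list at left and the pooled list at right, and the red points are the 9 genes. In the optimal list piwi and rhi sit high on the curve, where 87.9% and 95.0% of genes are as near or nearer, and in the pooled list piwi alone stays there at 97.5%.

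A head-to-head partner, a protein-coding gene on the opposite strand starting within 500 bp upstream, was found for 4 members (piwi, cuff, Panx and arx), and 27.4% of protein-coding genes had one. Among such genes 39.2% had an optimal summit within 250 bp of a start, against 17.4% of the other genes. The 2 members with such a summit, cuff and Panx, were both head-to-head, and a summit that lies near both starts of a pair is counted once for each gene.

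Other genes of the pathway were counted from lists set down with earlier results of these data known. Of 22 further genes with nuclear roles, such as chromatin cofactors and export factors, 12 had an optimal summit in the window and 4 at a start. The strongest was near Su(var)205, the gene of HP1a, with a signal of 2154 and rank 77. This summit lay 1890 bp upstream of that gene and 53 bp from the start of CG8360. Su(var)205 was also among the 4 genes with an optimal summit at a start, through another, weaker summit within 250 bp. Next came Su(var)2-10, a gene of a SUMO ligase, at rank 101, whose summit was 77 bp from the start of GstE13, and wde, a gene of a cofactor of the SetDB1 methyltransferase, at rank 133, in an intron 527 bp inside its own start. Boot, a gene of the export of cluster transcripts, followed at rank 164, with its summit 554 bp upstream and just 61 bp away from the Uhg4 start, and Mi-2, a chromatin remodeller gene, at rank 399 in an intron.

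Of 24 genes of the cytoplasmic steps and of nuage, the perinuclear site where piRNAs are made, 14 had an optimal summit in the window and 5 at a start. papi, a gene of a Tudor-domain protein of the mitochondrial surface, led at rank 61, with its summit 223 bp upstream of a papi start, and ranked 89, 59 and 49 in replicates 1, 2 and 3. Nbr, a gene of a piRNA-trimming exonuclease, followed at rank 857, 77 bp from the start of Coq3. The next was shu, a cochaperone gene, at rank 1129 and 85 bp from the start of Snap29, a summit not listed in replicate 1. After it came armi, an RNA helicase gene, at rank 1679 and 115 bp from the start of eIF5B. SoYb, a Tudor-domain gene, was at rank 1862 and 48 bp from the start of Ndf. The shares of both lists with an optimal summit in the window, 54.5% and 58.3%, stood beside 44.9% of all protein-coding genes, and at starts they were 18.2% and 20.8% beside 23.4%.

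By the ranks of their start summits in all 3 replicates, the genes most like Panx among 2828 were CG12560, with ranks 7986, 8332 and 7955 in replicates 1, 2 and 3, and CG11596, with 7781, 8453 and 7919. Those most like cuff, by its weaker summit, were Pfrx, with 15335, 8580 and 17409, and CG10051, with 7452, 6849 and 17062. Likeness was the distance of the log10 ranks over the 3 replicates, 0.0318 and 0.0356 for the genes near Panx and 0.22 and 0.257 for those near cuff.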

How the data were processed

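ChIP-seq peak lists of 3 replicates were used on build dm6. Per the deposited text files, the authors called relaxed lists per replicate and on the pooled replicates against a control, and kept an optimal list by IDR; aligner, peak caller and IDR threshold: not given in the sources used here. The signal value (column 7) is the authors' own and is deposited without depth, which is unknown, so intervals are not given. Summits came from column 10, and ranks from signal within a list. Lists on dm3 were not used here.

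Genes were those of Ensembl release 115 (BDGP6.54, the dm6 assembly), and sequence was the RefSeq Release 6 genome. Summits within 200 bp were taken as the same site in another list. Of the symbols of other pathway genes, 3 were found as synonyms. No test was run: there was 1 group, and members are not replicates. Counting was checked on simulated peaks. Python 3.11.15, numpy 2.4.6 and pandas 2.3.3 were used.

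The members, lists and rules were chosen with earlier results of these data known. Named were all members, the nearest starts at their entries, 5 genes per pathway list with the strongest optimal summit, and 2 genes of most similar replicate ranks per member with a summit at its start; RpL9 and aub were named after their values were seen.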

Additional observations from a re-analysis of the deposited data

How the results depend on the processing

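The members' counts moved with the window and with which peaks were kept, and so did the shares of all protein-coding genes, given in parentheses. The count with an optimal summit in the window, 6 (44.9%), was 0 with no flank (17.2%), 3 with 1 kb (38.9%) and 7 with 5 kb (59.3%), where arx was added. With peaks of above-median signal the count was 3 (32.1%). It was 3 with peaks found among the strongest 8131 entries of all 3 replicates (33.7%). With that match asked of 2 replicates, it was 5 without replicate 1 (38.2%), 3 without replicate 2 (37.0%) and 3 without replicate 3 (35.0%). The count at starts, 2 (23.4%), was 0 within 100 bp (13.4%), 1 with nearest starts only (19.1%), 0 with peaks of above-median signal (15.2%), 1 with the match in all 3 replicates (15.5%), and 1 to 2 (16.0% to 18.5%) with 1 replicate left out of the match. With a pooled entry in the window the count of 6 (65.0%) was 0 with no flank (30.2%) and 3 with 1 kb (57.1%). With 5 kb it was 8 (80.3%), where arx and rhi were added. With an entry in all 3 replicate lists the count of 5 (54.9%) was 0 with no flank (22.6%), 3 with 1 kb (46.8%) and 7 with 5 kb (72.8%). When 1 replicate was left out, it was 5 to 7 (56.9% to 62.6%). Of 31 alternatives, 15 kept the count within 1.5 times and 16 did not. Settings that keep fewer peaks or shorter windows give lower counts by construction, and longer windows cannot lower them. The unknown depth limits every statement about an absent entry: it was not listed among 30000, which does not show that Hmr was absent. No paired analysis was possible because there was 1 group and no contrast.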

Other observations

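The genes that, like piwi, had a summit at a start among the 2000 strongest entries of both replicates 2 and 3 and no pooled entry in the window were of mixed roles. The 45 genes included those of the ribosomal proteins RpL9 and RpS27A, the chromatin remodeller Chd1, the nuclear pore protein Nup133 and the splicing factor U2af50. These names were chosen after their values were seen, and no enrichment was tested. Among the 9 nuclear piRNA genes, piwi was the 1 gene in this group. The entry upstream of del, with ranks 3433 and 2975, and that of replicate 3 at RpL26 near arx, with rank 1190, also lacked a pooled counterpart within 200 bp.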
